A study of Mus musculus with 12 samples.

Results

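Keratins are the intermediate filament proteins of epithelial cells, and the mRNA of 10 of them, Krt5, Krt14, Krt17, Krt15, Krt8, Krt18, Krt19, Krt7, Krt6a and Krt10, was followed across basal and luminal cells of the mouse mammary gland. They were chosen by gene symbol, as the keratins used to tell the layers of mammary and stratified epithelium apart, and all 10 were among the 27179 genes counted. Keratins come in 2 types, and a filament is built from pairs of 1 type I and 1 type II protein, so each cell type needs members of both. In the mammary gland the outer basal layer, which holds the contractile myoepithelial cells, carries Krt5 and Krt14, whereas the luminal cells that line the ducts and make milk carry the keratins of simple epithelia, Krt8, Krt18 and Krt19. Other keratins mark states that the resting bilayer is not known for, such as Krt6a in wounded or proliferating epithelium and Krt10 in the upper, cornifying layers of skin.

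RNA came from female mice in 4 groups of 3 biological replicates: basal and luminal epithelial cells of Foxp1(fl/fl) controls, and the same cell types of MMTV-cre/Foxp1(fl/fl) mice, the conditional knockouts. All animals thus carried the floxed Foxp1 alleles, and the knockouts also carried Cre recombinase under the promoter of the mouse mammary tumour virus, which is active in mammary epithelium and also in other secretory epithelia such as salivary gland. Ages, the sort used to part the cells and whether animals were pooled are not given in the labels. Libraries held 9769361 to 15449513 counts, and 14903 genes passed the expression filter, the 10 keratins included.

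The targeted gene was read first. Foxp1 stood at 160 to 221 CPM (counts scaled to library size with TMM factors) in basal controls and at 193 to 284 CPM in the basal knockouts, and at 62.0 to 82.3 CPM in luminal controls against 150 to 161 CPM in the luminal knockouts. Foxp1 counts were thus higher in the luminal knockout libraries (log2 fold 1.07, SE 0.19, adjusted p = 0.0161, edgeR quasi-likelihood F test), against the direction of the label, although counts per gene also take reads from exons outside the deleted part. The libraries are therefore called knockout-labelled below. The labelled cell types of the controls were borne out by their markers. All 9 basal or myoepithelial markers, such as Acta2 and Myh11, were called lower in luminal than in basal controls, where 16.8% of tested genes were. All 10 luminal markers, such as Epcam and Elf5, were called higher, where 16.3% were. In knockout-labelled cells all 9 basal markers were called lower, where 21.4% of tested genes were, and 8 of the 10 luminal markers higher, where 19.2% were.

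The 10 genes lie in the pair of keratin clusters of the mouse genome. On chromosome 15 (GRCm38.p6) lie the type II genes Krt7 (101412403 to 101427806), Krt6a (101689928 to 101694305), Krt5 (101707069 to 101712905) and Krt8 (101996711 to 102004342), together with Krt18 (102028216 to 102032026), the type I gene beside its partner Krt8. On chromosome 11 lie the type I genes Krt10 (99385254 to 99397449), Krt15 (100131759 to 100135949), Krt19 (100140810 to 100145926), Krt14 (100203162 to 100207510) and Krt17 (100256215 to 100261029). Promoters from RefSeq, 250 bases before to 50 bases after the start, were at hand for 6 of the 10 genes, though the window given for Krt14 lies inside the annotated gene. Below are those of Krt5, the main type II keratin of basal cells, and of the neighbouring simple keratins Krt8 and Krt18, whose log2 levels had a Pearson's r of 0.99 over the 12 libraries. Capitals mark TATAAA on either strand, the only one of the motifs searched that matched in them.
Krt5, chr15:101712856-101713155, minus strand: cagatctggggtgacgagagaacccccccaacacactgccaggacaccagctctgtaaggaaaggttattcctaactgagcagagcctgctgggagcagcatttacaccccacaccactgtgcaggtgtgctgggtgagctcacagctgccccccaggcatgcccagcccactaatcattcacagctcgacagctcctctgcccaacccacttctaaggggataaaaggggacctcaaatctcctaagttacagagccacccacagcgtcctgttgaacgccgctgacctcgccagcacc
Krt8, chr15:102004293-102004592, minus strand: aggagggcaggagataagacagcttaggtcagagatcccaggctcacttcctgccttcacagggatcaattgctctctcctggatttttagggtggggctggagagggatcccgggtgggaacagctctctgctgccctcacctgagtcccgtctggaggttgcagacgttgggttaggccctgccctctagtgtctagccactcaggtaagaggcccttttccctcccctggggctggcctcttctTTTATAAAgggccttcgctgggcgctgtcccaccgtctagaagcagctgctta
Krt18, chr15:102027966-102028265, plus strand: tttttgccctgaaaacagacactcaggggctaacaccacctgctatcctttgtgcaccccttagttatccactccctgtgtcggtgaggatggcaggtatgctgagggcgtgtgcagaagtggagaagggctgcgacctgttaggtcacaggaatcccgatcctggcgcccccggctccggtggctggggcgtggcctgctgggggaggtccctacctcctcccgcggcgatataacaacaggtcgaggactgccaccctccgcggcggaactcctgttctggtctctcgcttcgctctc
The capitals in Krt8 are an overlapping pair of matches, 1 on each strand. TATAAA was found in 13.6% of 32851 mouse promoters of this length, and in 2 of the 6 keratin windows, those of Krt8 and Krt10. TGANTCA, the motif of AP-1 factors, was in 7.81% of all promoters and in none of these 6. GGGCGG, the GC box, was in 35.7% of all promoters and, among the keratins, only in Krt7, with 4 matches. Both strands were searched for each motif, and a match or its lack says only whether these letters stand in the window.

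Krt5 and Krt14, the filament pair of basal cells, were high in every basal library and low in every luminal one. Krt5 was measured at 2387, 2574 and 7270 CPM in replicates 1, 2 and 3 of the basal controls, and at 4648, 3259 and 2306 CPM in those of the basal knockout-labelled cells. Its level in luminal cells was 23.6, 12.8 and 321 CPM in controls and 46.1, 229 and 141 CPM in the knockout-labelled replicates. Replicate 3 was the highest control in both cell types, and no luminal library reached a basal one. Krt14 was measured at 4811, 4101 and 7295 CPM in basal controls and 8625, 4526 and 7901 CPM in basal knockout-labelled cells, against 56.9, 36.3 and 282 CPM in luminal controls and 208, 393 and 386 CPM in luminal knockout-labelled cells. Between luminal and basal controls the log2 fold was -5.10 for Krt5 (SE 1.18, adjusted p = 0.00645) and -5.43 for Krt14 (SE 0.77, adjusted p = 2.78e-04).

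Krt17 and Krt15 are type I keratins that also mark basal cells. Krt17, which wounding induces in skin, was at 2950, 2446 and 1987 CPM in basal controls and 4227, 2456 and 3033 CPM in basal knockout-labelled cells. In luminal cells Krt17 fell to 57.3, 25.2 and 83.3 CPM in controls and to 80.2, 331 and 103 CPM in the knockout-labelled replicates, of which replicate 2 stood apart. Unlike Krt5 and Krt14, it was lowest, not highest, in replicate 3 of the basal controls. Krt15, a marker of hair follicle stem cells in skin, was the most even of the 10 in basal controls, at 749, 767 and 829 CPM, and stood at 727, 523 and 313 CPM in basal knockout-labelled cells. Its luminal levels were 32.6, 13.5 and 67.1 CPM in controls and 46.2, 34.8 and 52.2 CPM in the knockout-labelled replicates. For both genes the basal and luminal ranges were apart, and between luminal and basal controls the log2 folds were -5.48 for Krt17 (SE 0.64, adjusted p = 7.80e-05) and -4.37 for Krt15 (SE 0.53, adjusted p = 8.89e-05).

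Krt8 and Krt18, the pair of simple epithelia, gave the mirror image, but were not absent from basal cells. Krt8 stood at 4486, 3373 and 6133 CPM in luminal controls and 4750.0, 5017 and 7340 CPM in luminal knockout-labelled cells, and at 605, 500.4 and 428 CPM in basal controls and 844, 497 and 662 CPM in basal knockout-labelled cells. Krt18 stood at 2961, 1941 and 3380.4 CPM and at 3311, 3292 and 5017 CPM in the 2 luminal groups, in the same order, and at 181, 129 and 194 CPM and 325, 234 and 366 CPM in the basal ones. The luminal knockout-labelled replicate 3 was the highest library for both genes. The luminal excess over basal controls had a log2 fold of 3.19 for Krt8 (SE 0.33, adjusted p = 3.35e-05) and of 4.04 for Krt18 (SE 0.33, adjusted p = 8.60e-06).

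Krt19, the smallest keratin, which lacks most of the tail domain, had the largest luminal excess of the 10 in the controls. It stood at 2654, 1687 and 2691 CPM in luminal controls, 2813, 3761 and 4118 CPM in luminal knockout-labelled cells, 74.2, 45.6 and 83.5 CPM in basal controls and 262, 199.6 and 149 CPM in basal knockout-labelled cells. The knockout-labelled libraries lay above the controls in both cell types without overlap. The log2 fold between luminal and basal controls was 5.11 (SE 0.37, adjusted p = 4.51e-06). Krt7, a type II keratin of ducts and glands, was at 419, 293 and 978 CPM in luminal controls and 650.0, 1009 and 1521 CPM in luminal knockout-labelled cells. In basal cells Krt7 was at 19.0, 9.74 and 181 CPM in controls, replicate 3 being far above the other two, and at 48.0, 33.9 and 44.0 CPM in knockout-labelled cells. Its luminal excess over basal controls was a log2 fold of 3.01 (SE 0.91, adjusted p = 0.0258), which ended as a call when basal control replicate 1, basal control replicate 2 or luminal control replicate 3 was left out (adjusted p = 0.0905, 0.0507 and 0.0943).

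Krt6a and Krt10 did not sort by cell type. Krt6a, the type II keratin of wound edges, stood at 191, 25.8 and 2106 CPM in basal controls and 993, 482 and 440.3 CPM in basal knockout-labelled cells, and at 108, 51.1 and 428 CPM and 411, 782 and 1285 CPM in the corresponding luminal groups. Krt10, the type I keratin of the upper epidermis, was barely detected in 4 of the 6 control libraries, at 4.58 to 5.72 CPM. It stood at 5.39, 5.72 and 697 CPM in basal controls, 165, 15.4 and 18.0 CPM in basal knockout-labelled cells, 4.58, 5.27 and 164 CPM in luminal controls and 21.6, 36.7 and 27.5 CPM in luminal knockout-labelled cells. Basal and luminal ranges overlapped for both genes, and between luminal and basal controls the log2 folds were -1.98 for Krt6a (SE 1.20, adjusted p = 0.232) and -2.03 for Krt10 (SE 1.77, adjusted p = 0.412), neither of them called. Replicate 3 was the highest control for both genes in both cell types.

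**Figure D1:**
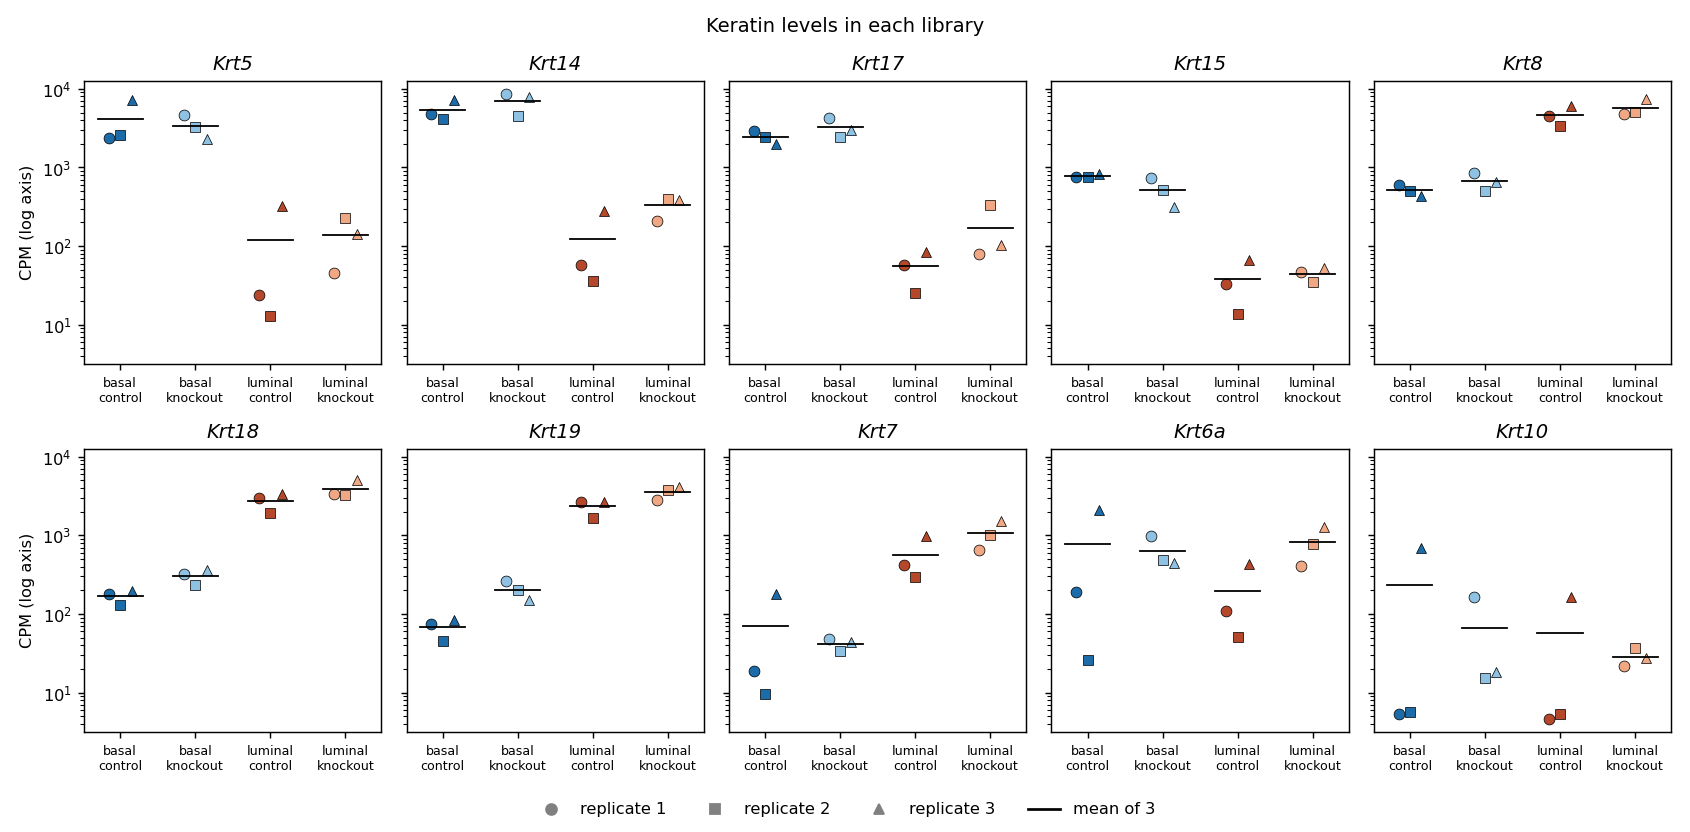
CPM of each keratin in each library, on a log axis shared by all panels; symbols give the replicate number and lines the mean of 3 libraries. Krt5, Krt14, Krt17 and Krt15 are high in the basal groups, Krt8, Krt18, Krt19 and Krt7 in the luminal groups, and the third controls stand high for Krt6a and Krt10, at 2106 and 697 CPM in basal cells.

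Read against all genes, 8 of the 10 keratins were called different between luminal and basal controls, 4 higher and 4 lower, where 33.2% of the 14903 tested genes were called, 16.3% higher and 16.8% lower. The same 8 genes were called in the same directions between luminal and basal knockout-labelled cells, where 40.6% of tested genes were called, 19.2% higher and 21.4% lower. There the log2 folds were -4.61 for Krt5 (SE 1.15), -4.41 for Krt14 (SE 0.73), -4.24 for Krt17 (SE 0.61) and -3.55 for Krt15 (SE 0.51), and 3.09 for Krt8 (SE 0.33), 3.65 for Krt18 (SE 0.33), 4.13 for Krt19 (SE 0.35) and 4.66 for Krt7 (SE 0.99). Their adjusted p-values ran from 9.51e-06 for Krt19 to 0.00792 for Krt5. Krt6a (log2 fold 0.37, SE 1.16, adjusted p = 0.824) and Krt10 (log2 fold -1.21, SE 1.74, adjusted p = 0.610) were again not called. In bulk cells, a lower level can mean fewer cells of a type or less RNA per cell, and these cannot be told apart.

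Per kilobase of gene model, which allows genes to be set side by side, each cell type was led by 3 keratins. Basal controls were led by Krt14 at 3254 ± 1010, Krt5 at 1862 ± 1264 and Krt17 at 1629 ± 319 CPM per kilobase (SD, n = 3), and the ranges of Krt5 and Krt17 overlapped. A gap without overlap parted these from Krt15 at 454 ± 24.5, Krt6a at 343 ± 512 and Krt8 at 283 ± 49.3 CPM per kilobase. Krt18 followed at 120 ± 24.7, Krt10 at 113 ± 191, Krt19 at 49.3 ± 14.4 and Krt7 at 44.1 ± 60.8 CPM per kilobase, with overlapping ranges. In basal knockout-labelled cells Krt14 again led, at 4227 ± 1318, and Krt10 and Krt7 were last, at 31.6 ± 40.8 and 26.5 ± 4.57 CPM per kilobase. Krt17 at 2143 ± 598 and Krt5 at 1554 ± 538 came next to Krt14, clear of the 5 genes between Krt8 at 370 ± 95.9 and Krt19 at 148 ± 41.0 CPM per kilobase.

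Luminal controls were led by Krt8 at 2584 ± 769, Krt18 at 1972 ± 529 and Krt19 at 1705 ± 414 CPM per kilobase, whose ranges overlapped one after the other. Krt7 stood below them at 355 ± 230, and the other 6 keratins lay between Krt6a at 86.7 ± 90.0 and Krt15 at 21.9 ± 15.8 CPM per kilobase. In luminal knockout-labelled cells the order of the first 4 was the same, with Krt8 at 3159 ± 789, Krt18 at 2767 ± 708, Krt19 at 2592 ± 491 and Krt7 at 669 ± 276 CPM per kilobase. Krt6a was at 366 ± 194 and Krt14 at 198 ± 63.1, and Krt10 came last at 13.7 ± 3.62 CPM per kilobase, below every other member in every library of that group.

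As a share of the summed level of the 10 keratins per kilobase, the basal set of Krt5, Krt14, Krt17 and Krt15 made up 91.2%, 93.1% and 84.0% in basal controls and 88.0%, 88.1% and 89.2% in basal knockout-labelled cells. In luminal controls that share was 1.47%, 1.10% and 4.53%, and in luminal knockout-labelled cells 2.88%, 6.15% and 3.15%. The simple set of Krt8, Krt18, Krt19 and Krt7 made up 4.86% to 8.73% in basal libraries and 90.0% to 98.4% in luminal ones. Krt6a and Krt10 together took 11.2% in basal control replicate 3 and 0.231% to 4.63% elsewhere. The 10 genes held 0.823% to 2.21% of all counts of a library and 91.0% to 98.5% of the counts of all 54 keratin genes in the table.

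**Figure D2:**
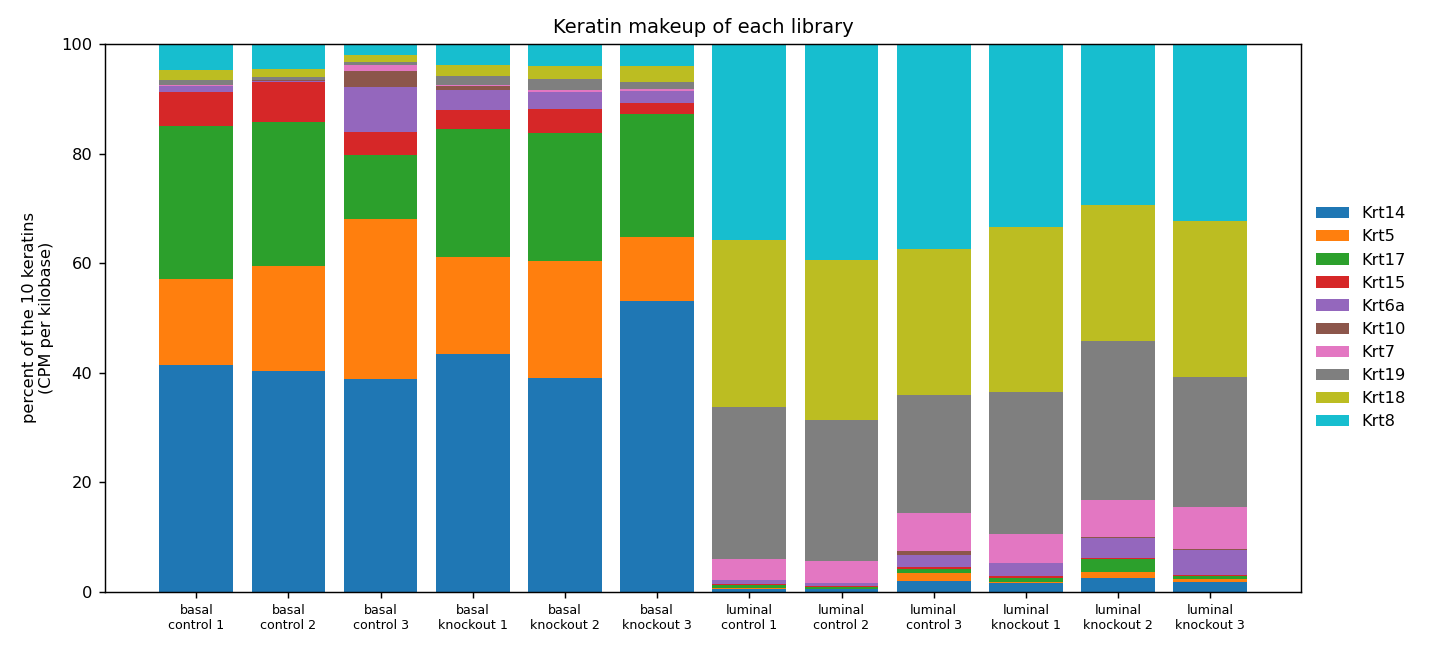
Stacked bars give each keratin's percent of the summed CPM per kilobase of the 10 genes, 1 bar per library. Krt14, Krt5, Krt17 and Krt15 fill 84.0% to 93.1% of the basal bars and 1.10% to 6.15% of the luminal bars.

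Type II mRNA did not match type I mRNA in equal amounts, although the proteins pair. The ratio of summed type II to summed type I level per kilobase was 0.426 ± 0.225 in basal controls, 0.323 ± 0.0904 in basal knockout-labelled cells, 0.795 ± 0.123 in luminal controls and 0.737 ± 0.0696 in luminal knockout-labelled cells (SD, n = 3). Krt5 over Krt14 per kilobase was 0.376, 0.476 and 0.755 in basal controls and 0.409, 0.546 and 0.221 in basal knockout-labelled cells. Krt8 over Krt18 was nearer to parity in luminal cells, at 1.17, 1.35 and 1.41 in controls and 1.11, 1.18 and 1.13 in knockout-labelled cells. In basal cells the same ratio ran from 1.40 to 3.02, so the ranges of the cell types met only at 1.40 and 1.41. These ratios depend on the gene models' lengths and on how reads shared between similar genes were counted.

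Sequence shared with other genes differs among the 10. Of the 50-base windows of a gene's longest protein-coding transcript, 49.5% for Krt6a also occur in transcripts of other genes, mainly Krt6b (43.6%). For Krt8 the share was 26.9%, mainly with a Krt8 pseudogene, for Krt14 it was 14.4%, mainly with Krt16, and for Krt5 it was 8.52%, mainly with Krt6a. It was smaller for Krt17, and at most 0.720% for the remaining 5 genes. The authors' handling of multiply mapped reads, which is not given in the sources used here, could have moved the levels of genes with shared windows, Krt6a having the largest share.

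In the main test, which did not use the replicate numbers, no keratin was called between knockout-labelled and control cells of either type. In basal cells 0 of 10 passed where 0.671% of tested genes were called, and in luminal cells 0 of 10 passed where 3.03% were called. By the same edgeR test, 2 keratins had an unadjusted p under 0.05 in basal cells, Krt18 at 0.0125 and Krt19 at 3.43e-04, and 1 in luminal cells, Krt17 at 0.0119. The members' median log2 fold was 0.06 in basal cells, with 5 of 10 positive, beside -0.01 over all tested genes. In luminal cells it was 0.55, with 9 of 10 positive, beside -0.03 over all tested genes. The difference between the effects in the 2 cell types was called for 0 of 10 keratins, where 0.275% of tested genes were called.

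Krt19 in basal cells came nearest to a call. The 149 to 262 CPM of the knockout-labelled libraries lay above the 45.6 to 83.5 CPM of the controls, a log2 fold of 1.59 (SE 0.32, adjusted p = 0.0501). It passed without the expression filter (adjusted p = 0.0393), with DESeq2 (9.62e-05), with limma-voom (0.0216), with the replicate number as a block (0.0339) and without both control replicate 3 libraries (0.0361), and failed with each library left out singly (0.0536 to 0.227). It also failed with RLE size factors (adjusted p = 0.0547), library size alone (0.0560), non-robust dispersion (0.0531), only the basal groups in the fit (0.0606) and a filter of 1 CPM in 3 libraries (0.0501). Krt18 in basal cells also lay above the controls without overlap (log2 fold 0.88, SE 0.30, adjusted p = 0.285) and was called only with the replicate block (log2 fold 0.87, adjusted p = 0.0442), where 1.58% of tested genes were called. Their partner Krt8 moved less, by 0.39 (SE 0.30, adjusted p = 0.911), with overlapping groups. Krt15 was lower without overlap (log2 fold -0.58, SE 0.46, adjusted p = 0.910). Over all tested genes, basal groups did not overlap in 8.15% in the higher and 4.21% in the lower direction.

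Krt14, Krt17 and Krt5 had log2 folds of 0.38 (SE 0.63), 0.40 (SE 0.53) and -0.26 (SE 0.99) in basal cells, all with overlapping groups. Those of Krt7, Krt6a and Krt10 were -0.74 (SE 0.86), -0.28 (SE 1.16) and -1.84 (SE 1.75), with adjusted p of 0.945 to 0.990. The standard errors of Krt5, Krt6a and Krt10 leave room for changes of several fold in either direction. Those of Krt14, Krt17 and Krt7 also leave room for a change in either direction. With basal control replicate 3 left out, the log2 folds of Krt5, Krt7, Krt6a and Krt10 turned positive (0.46, 1.55, 2.56 and 3.57), none of them called. The sum of the 9 fibroblast markers, such as Pdgfra and Col1a1, also differed between the basal groups, at 481 to 640 CPM in controls and 1693 to 2760 CPM in knockout-labelled cells, with 2 of 9 called higher where 0.671% of tested genes were called. Its part in the keratin values was not tested.

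In luminal cells the largest log2 folds were those of Krt6a at 2.08 (SE 1.21, adjusted p = 0.419), Krt17 at 1.63 (SE 0.55, adjusted p = 0.144) and Krt14 at 1.40 (SE 0.65, adjusted p = 0.298). DESeq2 called Krt17 (adjusted p = 0.0316), and Krt14 was called when luminal control replicate 3 was left out (log2 fold 2.84, adjusted p = 0.0130). The simple keratins moved less: Krt8 by 0.29 (SE 0.30), Krt18 by 0.49 (SE 0.29), Krt19 by 0.60 (SE 0.31) and Krt7 by 0.91 (SE 0.85), with adjusted p of 0.350 to 0.687. Of these only Krt19 had groups that did not overlap, as 13.1% of tested genes did in the higher direction. Krt5, Krt15 and Krt10 had log2 folds of 0.22 (SE 0.99), 0.24 (SE 0.46) and -1.01 (SE 1.73).

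Both control libraries numbered 3 stood apart from the other controls in several, but not all, keratins of stratified epithelium. Beside Krt10 at 697 and 164 CPM and Krt6a at 2106 and 428 CPM, Krt13, a keratin of the mouth and oesophagus, was at 319 and 217 CPM in basal and luminal control replicate 3 and at 0.31 to 0.46 CPM in the other 4 controls. Krt4, the type II partner of Krt13, was at 202 and 102 CPM there and at 0.09 to 5.92 CPM in the other controls. Krt1, the type II partner of Krt10, named here after its values were seen, was at 128 and 30.2 CPM against 0.36 to 1.29 CPM. Krt6b was at 353 and 124 CPM against 0.80 to 10.3 CPM, and Krt16, the type I partner of Krt6a, was at 952 and 132 CPM against 6.75 to 150 CPM. Basal knockout-labelled replicate 1 showed part of this pattern, with Krt10 at 165, Krt13 at 70.9, Krt1 at 87.3 and Krt6b at 206 CPM, whereas Krt13 was at 0.18 and 0.54 CPM in the other two libraries of its group. The luminal knockout-labelled libraries differed by gene. Krt4 was at 28.0, 101 and 514 CPM, near that of luminal control replicate 3 in replicate 2 and above it in replicate 3. Krt13 was at 0.36 to 9.57, Krt1 at 8.18 to 17.6, Krt6b at 2.74 to 11.3 and Krt16 at 36.3 to 107 CPM, all below luminal control replicate 3. Krt13, Krt4, Krt6b and Krt16 were named by mean level over the 12 libraries, which the third controls raise. Other keratins known from skin did not stand apart in this way. Krt77 was at 0.09 and 0.20 CPM in basal and luminal control replicate 3, beside 0 to 0.47 CPM in the other controls. Krt78 was at 2.49 and 8.85 CPM, beside 1.76 to 7.11 CPM.

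Genes of the cornified envelope were uneven in these libraries. The summed level of the 14 suprabasal and cornified envelope genes was 1118 and 672 CPM in basal and luminal control replicate 3, against 73.2 to 224 CPM in the other 4 controls. It was 574, 327 and 310 CPM in basal and 523, 1692 and 2014 CPM in luminal knockout-labelled cells, so the highest sums were in libraries with little Krt13. Sprr1a made up much of the sum, with 459 and 277 CPM in the third controls against 3.31 to 54.6 CPM in the other controls, and 1242 and 1683 CPM in luminal knockout-labelled replicates 2 and 3. Ivl, in contrast, was at 3.79 and 1.61 CPM in the third controls, within or near the 0 to 4.05 CPM of the others. Sprr1a is named here after its values were seen. Of the list, Flg was at 0 in the basal knockout-labelled and luminal control groups. Contractile genes were low in basal control replicate 3, where Acta2 was at 1242 CPM against 4845 and 5180 CPM in its group, and the 9 basal markers summed to 4192 CPM against 12889 and 14146 CPM. Of the 9, Trp63 alone was highest there, at 394 CPM against 272 and 332 CPM. Basal knockout-labelled replicate 3 was also lowest in its group. Acta2 was at 1702 CPM against 3272 and 3598 CPM, and the sum was 6314 CPM against 10154 and 11146 CPM. The part of these contractile and cornified envelope genes in the keratin values was not tested.

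**Figure D3:**
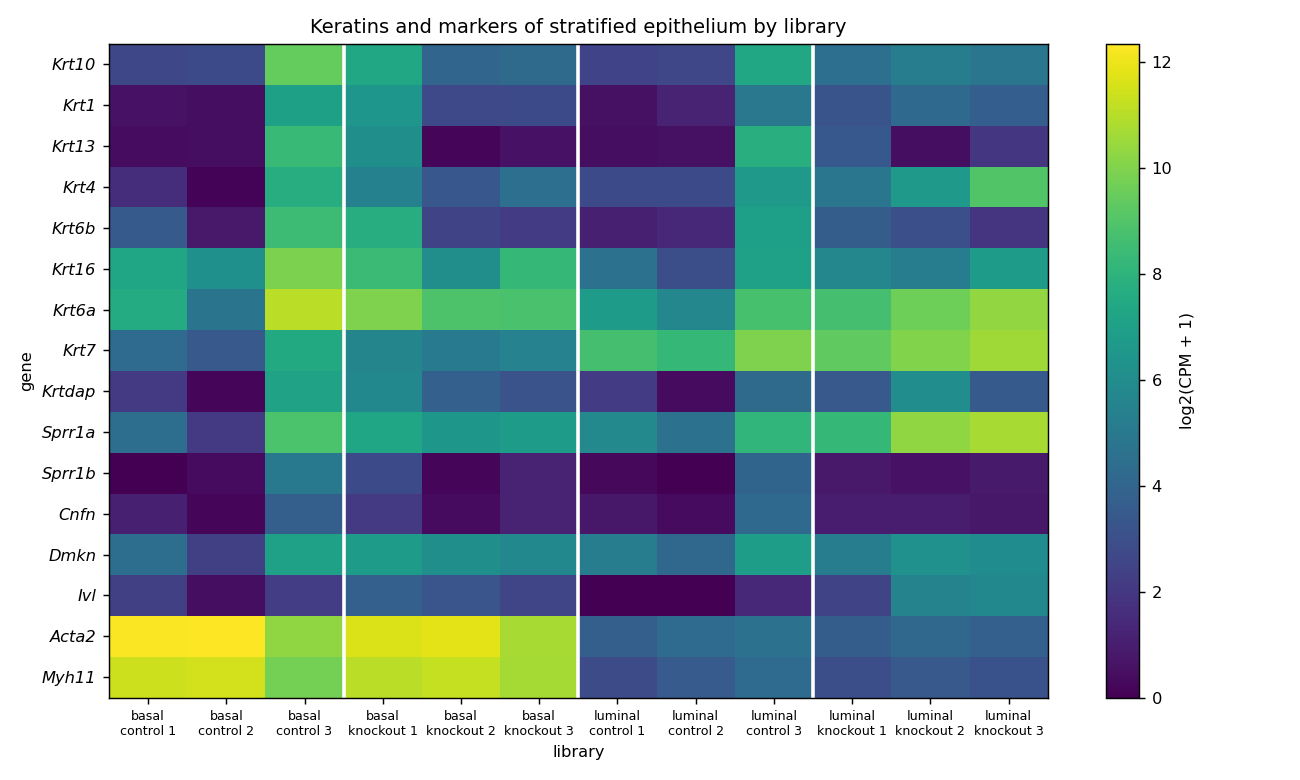
Colour gives log2(CPM + 1) for Krt10, Krt6a, Krt7, other keratins, cornified envelope genes and the contractile genes Acta2 and Myh11 in each library, with white lines between groups. Control replicate 3 of both cell types carries Krt13, at 319 and 217 CPM, where the other controls are at 0.31 to 0.46 CPM, and Acta2 is lowest among basal libraries in control replicate 3, at 1242 CPM.

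Leaving out both control replicate 3 libraries changed several calls, a choice made after these values were seen. In luminal cells Krt5 (log2 fold 2.93, SE 0.63, adjusted p = 0.0244), Krt14 (2.81, SE 0.41, adjusted p = 0.00631), Krt7 (1.57, SE 0.39, adjusted p = 0.0388) and Krt6a (3.36, SE 0.86, adjusted p = 0.0440) were then called higher in knockout-labelled cells. That made 4 of 10 keratins called higher, where 4.58% of tested genes were called higher and 7.21% in either direction. In basal cells Krt19 alone was called (log2 fold 1.79, SE 0.35, adjusted p = 0.0361), where 1.76% of tested genes were called, and Krt10 moved to 3.59 (SE 1.02, adjusted p = 0.125), Krt6a to 2.58 (SE 0.82, adjusted p = 0.167) and Krt7 to 1.57 (SE 0.40, adjusted p = 0.0889). No keratin was called for a difference between the effects, where 0.796% of tested genes were called, the nearest being Krt14 (log2 difference 2.15, adjusted p = 0.0959). Each control group then held 2 libraries. In luminal cells the library left out was the highest control for Krt5, Krt14, Krt7 and Krt6a, and in basal cells for Krt19, Krt10, Krt6a and Krt7. Leaving these libraries out thus raises those folds. As the choice followed keratin values, the calls it gave are no separate support for a difference. With basal knockout-labelled replicate 1 left out as well, Krt5 (adjusted p = 0.0339), Krt14 (0.0120) and Krt10 (log2 fold 2.56, SE 0.29, adjusted p = 0.00419) were called higher in luminal cells, where 3.99% of tested genes were called higher and 6.04% in either direction, and no keratin was called in basal cells, where 0.749% were. Krt10 was then also called higher in luminal than in basal knockout-labelled cells (log2 fold 0.77, SE 0.26, adjusted p = 0.0410), where 38.9% of tested genes were called. Basal knockout-labelled replicate 1 had the highest Krt10 level of its group. Leaving it out hardly moved the luminal Krt10 fold, which was 2.53 (SE 0.98) before, but narrowed its SE. The omissions followed Krt10 values, so both Krt10 calls rest on that choice and are no separate support.

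**Figure D4:**
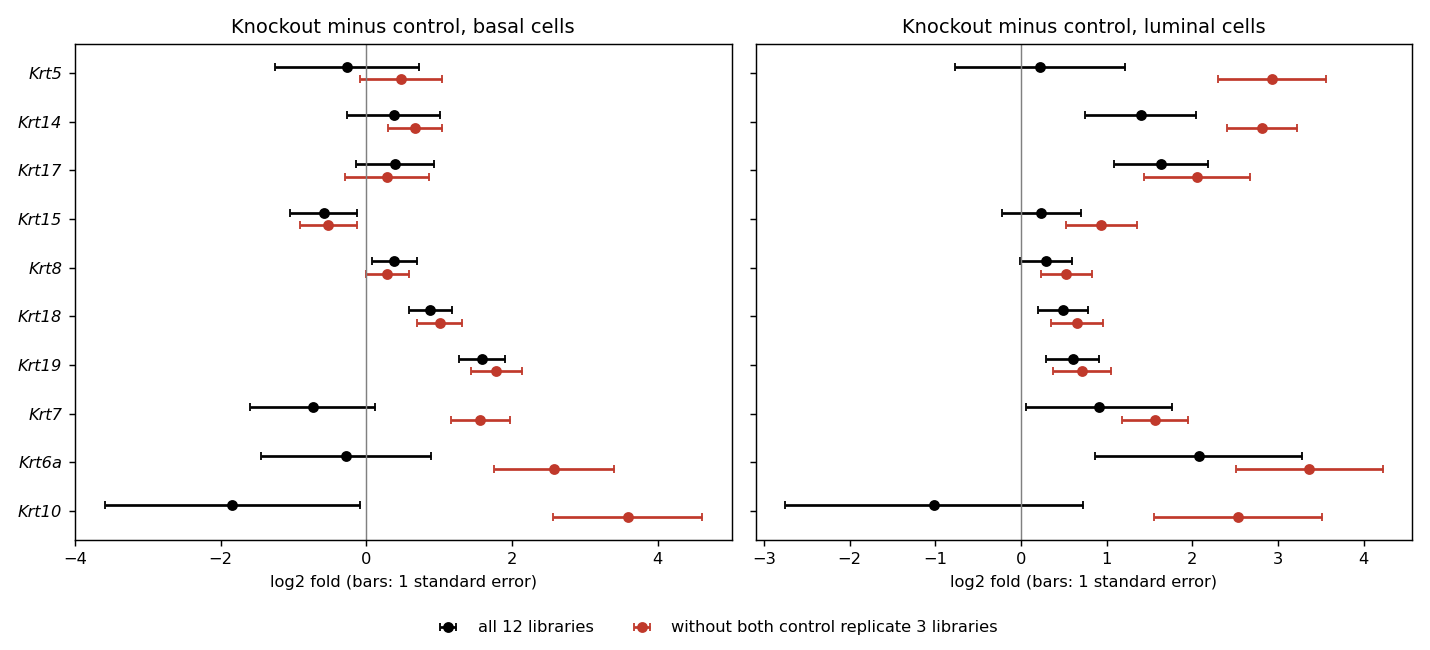
Log2 fold of each keratin between knockout-labelled and control cells, basal on the left and luminal on the right, with bars of 1 standard error; black is the fit of all 12 libraries and red the fit without both control replicate 3 libraries. Krt19 hardly moves between the fits, from 1.59 to 1.79 in basal cells, while Krt10 goes from -1.84 to 3.59 in basal and from -1.01 to 2.53 in luminal cells.

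Libraries of 1 group differed from each other in keratins that move as sets. With the group mean taken off each log2 level, Pearson's r over the 12 libraries was 0.96 between Krt6a and Krt7, 0.88 between Krt7 and Krt10 and 0.86 between Krt6a and Krt10. Krt5 and Krt14 had an r of 0.93 and Krt8 and Krt18 of 0.74. Krt17 followed Krt5 (0.65) but hardly Krt7 (0.12), Krt6a (0.22) or Krt10 (0.24). Krt7, which sorted with the simple keratins between cell types, thus varied with Krt6a and Krt10 within groups. These are descriptions over libraries that share their preparation, and the 2 libraries numbered 3 weigh in each.

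Over all 12 libraries without centring, the genes with the pattern most like each keratin, by Pearson's r of log2 CPM, reflected the split between cell types. Krt5 was most like Krt14 (r = 0.98) and Sema3d (0.97), Krt14 like Cxcl12 (0.99) and Mreg (0.99), and Krt17 like Mreg (0.99) and Apoe (0.99). Krt15 was most like Dram1 (0.98) and Parp8 (0.98). Krt8 was most like Dusp16 (0.99) and Rbm47 (0.99), Krt18 like Tmprss2 (0.99) and Vipr1 (0.99), Krt19 like Rasef (0.99) and Msc (0.99), and Krt7 like Acsbg1 (0.99) and Esrp2 (0.99), a splicing regulator of epithelial cells. Krt6a was most like Ppp1r14c (0.97) and Anxa8 (0.94), and Krt10 like Chit1 (0.97) and its filament partner Krt1 (0.95). The first 8 rest mainly on 2 clusters of libraries, basal and luminal.

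The other keratins of the table numbered 44, of which 23 were tested. Between luminal and basal controls 5 of these were called higher and 5 lower, where 16.3% and 16.8% of all tested genes were. In knockout-labelled cells none was called in basal and 2 in luminal cells, both higher, where 0.671% and 3.03% of all tested genes were called. Their median log2 folds were 0.15 and 0.37. Krt77 rose in luminal cells from 0.47, 0.28 and 0.20 CPM to 4.29, 11.1 and 17.8 CPM (log2 fold 5.08, SE 0.94, adjusted p = 0.0167). Krt78 rose from 7.11, 4.35 and 8.85 CPM to 15.6, 20.2 and 32.8 CPM (log2 fold 1.76, SE 0.35, adjusted p = 0.0227). In basal cells Krt77 was at 0 to 0.10 CPM in controls and 0.45 to 5.77 CPM in knockout-labelled cells. Its log2 fold of 5.06 there (SE 1.16, adjusted p = 0.0905) was like that in luminal cells but was not called. Control levels of Krt77 were near the floor in both cell types, with 2 counts in all basal controls and 10 in all luminal controls, so both folds rest on few counts. Krt78 had a basal log2 fold of -0.30 (SE 0.39, adjusted p = 0.978). Both are type II keratins known from skin, and their levels here were far below those of the main keratins. Krt80 and Krt23, the other keratins of highest mean level beside those of stratified epithelium, stood at 19.1 to 108 CPM and 25.6 to 78.8 CPM over the 12 libraries.

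Of 17 genes whose products bind keratin filaments or anchor them at desmosomes and hemidesmosomes, all were tested, and the shares of all tested genes called are those just given. Col17a1, a hemidesmosome collagen, was called higher in luminal knockout-labelled cells, at 17.5, 46.2 and 88.7 CPM against 12.8, 7.86 and 17.5 CPM (SE of the log2 fold 0.47, adjusted p = 0.0466), and none of the 17 was called in basal cells. Between luminal and basal controls 9 were lower, among them Col17a1 (log2 fold -6.70), the desmosome linker Dsp (-2.03) and the hemidesmosome integrin Itgb4 (-0.99), and 2 were higher, Pkp2 (4.81) and Ppl (1.89), which act at desmosomes. Of 14 genes of other intermediate filaments 11 were tested and none was called in either knockout comparison. Vim (log2 fold -3.54), Nes (-1.99), Synm (-4.70) and Prph (-2.29) were called lower in luminal than in basal controls. Among the 13 tested suprabasal and cornified envelope genes, Ivl, a scaffold of the cornified envelope, was called higher in luminal knockout-labelled cells, at 4.79, 45.5 and 52.3 CPM against 0, 0 and 1.61 CPM (adjusted p = 0.0324), and none was called in basal cells.

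Markers of other cells were read beside these values. Of the 9 basal markers, Trp63 (log2 fold 2.80, SE 0.58, adjusted p = 0.0253) and Cdh3 (2.94, SE 0.44, adjusted p = 0.00752) were called higher in luminal knockout-labelled cells, where 3.03% of tested genes were called. They were the only 2 of the 9 with a positive log2 fold. The median of the 9 was -0.41, and none was called lower. The contractile gene Acta2 was at 11.5 to 17.3 CPM in luminal knockout-labelled cells and at 12.3 to 23.8 CPM in luminal controls. Tagln was at 19.2 to 20.9 CPM and at 37.2 to 51.8 CPM in the same groups. The summed basal markers were 102 to 132 CPM in luminal controls and 97.3 to 182 CPM in luminal knockout-labelled cells. Krt14, Krt17 and Krt5 in luminal cells stand beside these values, and the part of basal cells in them was not tested. Salivary gland genes, 9 in the list, summed to 11122 to 122262 CPM in luminal controls and 19886 to 84172 CPM in luminal knockout-labelled cells, and to 185 to 4547 CPM in basal libraries. Between the luminal groups 2 of the 8 tested were called higher and 1 lower, where 3.03% of tested genes were called. Smr3a was at 22927, 2247 and 14683 CPM in luminal controls and 19.1, 30.8 and 6.41 CPM in luminal knockout-labelled cells. Prh1 was at 0.09 to 0.19 CPM and at 28.4 to 116 CPM. The part of the salivary genes in the keratin values was not tested. Endothelial and immune markers summed to at most 168 and 78.6 CPM in any library, and the 5 adipocyte markers to 4.99 to 94.4 CPM over the 12 libraries. In luminal libraries Adipoq and Lep were at 0, while Fabp4, which endothelial cells also express, was at 4.69 to 76.0 CPM.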

How the data were processed

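RNA-seq counts of 12 libraries were used. Per the labels' protocols, an RNeasy kit gave the RNA, and Illumina TruSeq RNA v2 libraries were sequenced. The submitters' processing notes name CASAVA 1.8.2, mm10 and featureCounts. For aligner, annotation and strand setting, nothing is given in the sources used here. The authors deposited whole-number read counts per gene for 27179 Entrez genes, 859 of them without a symbol, with no normalization, and a gene model length in bases, used here for levels per kilobase. The series table was compared with the 12 single-library tables, and 0 values differed. Without strand, reads of overlapping antisense genes cannot be told apart.

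Counts were tested in R 4.3.3 with edgeR 4.0.16: TMM factors, the default expression filter by group, and its quasi-likelihood F test (robust option) on 4 group means over all 12 libraries, with 8 residual degrees of freedom. P-values were Benjamini-Hochberg adjusted over all 14903 tested genes, which held at least 99.8% of the counts of each library, and adjusted p under 0.05 is a call. Every adjusted p given without a tool comes from this test. Standard errors were computed as the absolute log2 fold over the root of F. Biological variation had a common coefficient of 32.6%. P-values measure the spread between these samples. The test was also run on simulated data with known changes. Those counts were drawn independently for each library and held no outlying library such as control replicate 3, and their outcome is not used here.

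The named genes are the 10 keratins, the 6 other tested keratins of highest mean level, those called in a knockout-labelled comparison, and members of lists of keratin-binding, other intermediate filament, cornified envelope and cell type marker genes that were called or of lowest p. The members and lists were chosen with earlier results of these data known. Genes of like pattern are the 2 with the highest Pearson's r of log2 CPM (prior count 2) to a keratin over 12 libraries.

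Positions and promoters are from RefSeq on GRCm38.p6, the mm10 assembly, and shared 50-base windows were counted in GENCODE transcripts. No pair within a group agreed within sampling noise (chi-square per degree of freedom 11.7 to 137). Same-numbered libraries were checked for pairing by correlating deviations from the group means. The correlations were 0.36, 0.30 and 0.53 for luminal knockout-labelled with control and 0.31, 0.42 and 0.47 for luminal with basal controls. The numbers were thus taken to pair these. For basal knockout-labelled with control the correlations were -0.09, 0.36 and 0.13, and for luminal with basal knockout-labelled 0.09, 0.42 and 0.42. The main test did not use the pairing, so its folds, standard errors and calls are unpaired. Only the block for replicate number uses it, with 1097 luminal calls beside 451 in the main test. Alternatives were other scalings and filters, DESeq2 1.42.0, limma-voom (limma 3.58.1), fits of fewer groups, a block for replicate number and the omission of single libraries.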

Additional observations from a re-analysis of the deposited data

How the results depend on the processing

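The 8 calls between luminal and basal controls and the same 8 in knockout-labelled cells kept their direction under every alternative run; the call of Krt7 between controls was lost without the expression filter (adjusted p = 0.0579) and with only the groups compared in the fit (0.0982), besides the single libraries given above. With 1 library left out, 333 member values kept their direction and side of the threshold, 23 reversed, 1 became a call in the same direction and 3 lost one. The other settings gave 540 values for the 10 keratins over all comparisons, those 8 calls included. Of these 540, 500 kept their direction and side of the threshold, 25 reversed and 13 became calls in the same direction. The remaining 2 lost a call, both of them the Krt7 values just given. Of the 25, 2 were calls, both of Krt10 without both control replicate 3 libraries and basal knockout-labelled replicate 1, in luminal cells (adjusted p = 0.00419) and between the cell types in knockout-labelled cells (0.0410). The cause was not tested for any of these.

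Calls over all genes moved by more than 1.5 times in the 3 comparisons given first below. Ranges with 1 library left out are given whole, and not all values within them moved that far. In basal cells 100 genes were called, 59 with library size alone, 417 with DESeq2, 151 with only the groups compared, 267 without both control replicate 3 libraries and 17 to 122 with 1 library left out. In luminal cells 451 were called, 1089 with DESeq2, 199 with only the groups compared, 1097 without both control replicate 3 libraries, 912 with basal knockout-labelled replicate 1 also left out and 127 to 589 with 1 library left out. For the difference between the effects 41 were called, 356 with DESeq2, 22 with limma-voom, 121 without both control replicate 3 libraries and 10 to 86 with 1 library left out. Calls between the cell types moved by less than 1.5 times. With 1 library left out they were 3533 to 5211 in controls, beside 4942 in the main test, and 4765 to 5899 in knockout-labelled cells, beside 6044.

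With the replicate number as a block, calls were 236 in basal cells, 1097 in luminal cells and 106 for the difference between effects, and 6528 and 7634 between the cell types in control and in knockout-labelled cells. Pairing in this way gave the Krt18 and Krt19 calls above and no other new keratin call, and turned basal Krt5 to 0.26, Krt7 to 0.12, Krt6a to 1.21 and Krt10 to 1.07, and luminal Krt10 to 1.45.

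Other reversed log2 values were as follows. Library size alone gave 8.4e-05 for the Krt8 difference between effects. Limma-voom gave 0.36 for Krt7, 1.44 for Krt6a and 0.32 for Krt10 in basal cells and 0.87 for Krt10 in luminal cells. Without both control replicate 3 libraries, values were 0.48 for Krt5, 1.57 for Krt7, 2.58 for Krt6a and 3.59 for Krt10 in basal cells, 2.53 for Krt10 in luminal cells, and 0.24 for Krt8, -0.000465 for Krt7 and -1.05 for Krt10 in the difference between effects. With basal knockout-labelled replicate 1 also left out they were 0.17, 1.45, 2.10 and 1.59 for the same 4 genes in basal cells, 2.56 for luminal Krt10, 0.48 for the Krt8 difference between effects and 0.77 for Krt10 between the cell types in knockout-labelled cells.

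With 1 library left out, basal values ran from -0.58 to 0.46 for Krt5, -1.25 to 1.55 for Krt7, -0.85 to 2.56 for Krt6a and -3.87 to 3.57 for Krt10. Luminal values ran from -0.34 to 2.95 for Krt5, -0.17 to 0.96 for Krt15 and -1.56 to 2.56 for Krt10. Differences between effects ran from -0.24 to 3.23 for Krt5, -0.32 to 0.17 for Krt8, -0.64 to 2.37 for Krt7, -0.48 to 3.70 for Krt6a and -4.58 to 4.43 for Krt10. Between the cell types Krt6a ran from -3.34 to 0.85 in controls and -0.10 to 0.84 in knockout-labelled cells, and Krt10 from -5.65 to 3.38 and -1.68 to 0.78.

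With 3 libraries a group, standard errors of 0.29 to 0.32 for Krt8, Krt18 and Krt19 and of 0.85 to 1.75 for Krt5, Krt7, Krt6a and Krt10 limit what could be called.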
